A study of Mus musculus with 4 samples.

Results

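The intercalated disc joins heart muscle cells end to end, and 10 of its genes were followed by symbol among the 32285 genes measured in 4 spatial transcriptomic sections of infarcted mouse heart. Each section came from 1 adult ICR mouse, a female of 12 weeks, taken on day 1, day 4, day 7 or day 14 after permanent ligation of the left anterior descending coronary artery, and no section from an unoperated or sham-operated heart was analysed here. Polyadenylated RNA of fresh-frozen sections 10 µm thick was captured on Visium slides, whose barcoded spots each cover a small region that can hold several cells. Of 9102 spots, 7503 were kept after spots with more than 1% of their unique molecular identifiers (UMIs) from 8 hemoglobin genes were removed, namely 1890, 1679, 1848 and 2086 spots on days 1, 4, 7 and 14. With 1 mouse per day, days cannot be told apart from mice and were not tested against each other. Within a section, spots were ranked on the share of their UMIs that came from Ankrd1, Flnc, Xirp2 and Nppb, which strained and border-zone myocytes express, and were divided into 4 equal classes called stress quartiles, quartile 1 being the lowest and quartile 4 the highest.

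At the disc, 3 kinds of contact meet. Desmosomes anchor the desmin filaments of one myocyte to those of the next through the cadherins desmoglein 2 (Dsg2) and desmocollin 2 (Dsc2), the linkers plakophilin 2 (Pkp2) and plakoglobin (Jup), and desmoplakin (Dsp), which binds desmin (Des). Adherens junctions join the actin filaments through N-cadherin (Cdh2) and catenins such as alpha-T-catenin (Ctnna3), and gap junctions of connexin 43 (Gja1) carry the electrical impulse, with zonula occludens 1 (Tjp1) as the scaffold that binds the connexin tail. Loss of desmosomal proteins is a known cause of arrhythmogenic cardiomyopathy, and redistribution of connexin 43 at the infarct border is a known feature of ischemic hearts.

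The positions of 7 members are given here. In the GRCm38 annotation Gja1 occupies chr10:56377330-56402513, Dsp chr13:38151294-38198577, Pkp2 chr16:16213318-16272712, Jup chr11:100368958-100397763, Ctnna3 chr10:63430098-65003667, Des chr1:75360329-75368579 and Tjp1 chr7:65296165-65527781. RefSeq promoter windows on GRCm38.p6, from 250 bases before to 50 bases after a gene's start, were used for 6 of the 10 members, in 8 windows. Those of Dsg2, Dsc2 and Cdh2 were left out of the search, and Pkp2 had no entry. The windows of Des, Dsp and Gja1 are shown as those of a filament protein, of the desmosomal plaque and of the gap junction channel, whose stress quartile values are given below. They lie at chr1:75360042-75360341, chr13:38151044-38151343 and chr10:56377050-56377349, all on the plus strand, and capitals mark an E-box of the letters CAGCTG in Des and an AP-1 type motif of the letters TGANTCA in Gja1.
Des: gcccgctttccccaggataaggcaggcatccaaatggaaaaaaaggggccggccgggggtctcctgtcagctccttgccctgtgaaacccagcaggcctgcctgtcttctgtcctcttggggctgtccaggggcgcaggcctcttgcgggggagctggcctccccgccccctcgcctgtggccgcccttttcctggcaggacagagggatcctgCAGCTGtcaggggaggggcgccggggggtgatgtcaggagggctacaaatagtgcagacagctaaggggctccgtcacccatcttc
Dsp: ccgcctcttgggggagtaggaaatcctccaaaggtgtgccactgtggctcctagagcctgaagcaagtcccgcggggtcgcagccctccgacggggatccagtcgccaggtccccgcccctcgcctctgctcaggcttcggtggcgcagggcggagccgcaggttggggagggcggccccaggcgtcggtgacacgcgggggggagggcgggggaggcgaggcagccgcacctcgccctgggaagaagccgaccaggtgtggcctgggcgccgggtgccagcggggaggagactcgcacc
Gja1: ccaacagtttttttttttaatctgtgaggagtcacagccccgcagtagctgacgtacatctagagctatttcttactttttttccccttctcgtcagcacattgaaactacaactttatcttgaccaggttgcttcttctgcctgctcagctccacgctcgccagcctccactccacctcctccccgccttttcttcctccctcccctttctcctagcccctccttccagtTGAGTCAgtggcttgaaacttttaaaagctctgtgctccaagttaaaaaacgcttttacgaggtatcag
Searched on both strands, CAGCTG was present in 2 of the 8 member windows (Des and 1 window of Ctnna3) and in 16.3% of all 32851 windows. TGANTCA was present in 1 of 8 and in 7.81% of all. CATTCC, the core of the TEAD site, was present in 1 of 8, a window of Ctnna3, and in 14.7% of all. None of these 8 windows held a CArG box or a MEF2 site, which 1.63% and 3.19% of all windows held. A match is a description of letters and not a binding site.

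Over all kept spots, the 10 members gave between 349 UMIs (Ctnna3) and 58638 UMIs (Des). Kept UMIs per section were 11952107, 14350489, 9292678 and 15713779 on days 1, 4, 7 and 14, with medians of 6410, 8799, 5188 and 8311 UMIs per spot. Levels are given as CPM, the UMIs of a gene per 1000000 UMIs of the same spots, with exact 95% Poisson intervals, which cover counting error only. All 5 cardiomyocyte markers (Myh6, Myl2, Tnnt2, Actc1, Tnni3) were detected in every section, at a summed level between 32995 and 43934 CPM.

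Des had its highest level on day 1, at 1725 CPM (95% interval 1701 to 1748), with 1129 (1112 to 1147) on day 4, 951 (931 to 971) on day 7 and 826 (812 to 841) on day 14. The 4 intervals did not overlap, and the order was the same per 1000 UMIs of the myosin genes Myh6 and Myl2, at 90.1, 67.4, 48.5 and 37.7. Jup and Pkp2, which link the desmosomal cadherins to desmoplakin, also had their highest levels on day 1. On days 1, 4, 7 and 14 Pkp2 stood at 134.7 (128.2 to 141.4), 88.2 (83.4 to 93.2), 90.2 (84.2 to 96.5) and 80.9 (76.5 to 85.5), and the last 3 intervals overlapped each other. Jup stood at 115 (109 to 121), 73.9 (69.6 to 78.5), 93.3 (87.2 to 99.7) and 68.2 (64.1 to 72.4) in the same order, and among these intervals only those of days 4 and 14 overlapped.

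Gja1 was also highest on day 1, at 402 CPM (391 to 414), and lowest on day 4, at 244 (236 to 252), with 334 (323 to 346) on day 7 and 319.7 (310.9 to 328.6) on day 14, where the last pair of intervals overlapped. The low day 4 level was present in Actc1+Tnnt2-rich spots too, a class defined below, at 260 against 404, 376 and 325 on days 1, 7 and 14. Per 1000 myosin UMIs the values were 21.0, 14.6, 17.0 and 14.6, and days 4 and 14 no longer differed beyond their intervals. In CPM over all spots, Dsp and Cdh2 were at their lowest on day 4, although the intervals of Dsp on days 4 and 7 overlapped. Myh6+Myl2 were lowest on day 4 too, at 16755 CPM against 19136, 19612 and 21918 on days 1, 7 and 14. Per 1000 myosin UMIs neither gene was lowest on day 4, and Dsp was highest there. In CPM and in day order, Dsp stood at 331 (321 to 342), 311 (302 to 321), 312 (301 to 324) and 356 (347 to 366), and Cdh2 at 199 (191 to 207), 164 (158 to 171), 186 (177 to 195) and 194 (187 to 201). Dsc2 was highest on day 14, at 29.4 (26.8 to 32.2) with 16.5 (14.3 to 19.0) on day 1, 19.4 (17.2 to 21.8) on day 4 and 17.3 (14.7 to 20.2) on day 7. Dsg2 ranged from 15.2 (12.8 to 17.9) on day 7 to 24.5 (22.1 to 27.1) on day 14, Tjp1 from 26.4 (23.5 to 29.4) on day 1 to 36.9 (33.1 to 41.0) on day 7, and Ctnna3 from 6.24 (5.06 to 7.60) on day 14 to 7.36 (5.91 to 9.07) on day 1, where all 4 intervals overlapped.

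The main comparison asked which members differed between spots high and low in the 4 ranking genes within the same heart. Quartile 1 was not the same kind of tissue in each section. On day 1, 1.48% of its spots were poor in Myh6+Myl2, meaning a share below 0.5 times the section's median, against 41.4% on day 4, 68.0% on day 7 and 36.4% on day 14. Fibroblast markers (5 genes, collagens among them) reached 9275, 17281 and 3056 CPM in quartile 1 of days 4, 7 and 14, against 872 on day 1. Quartile 1 of day 7 also held 10 skeletal muscle markers at 12095 CPM, against 153 in quartile 4. On day 14, 121 of the 155 spots under 1000 UMIs lay in quartile 1. Spots with Actc1+Tnnt2 UMIs at a share of at least 0.5 times the section's median were therefore also ranked on their own, a choice made after the values had been seen. These Actc1+Tnnt2-rich spots numbered 1834, 1406, 1414 and 1827 on days 1, 4, 7 and 14. Actc1 and Tnnt2, a sarcomeric actin and a troponin, served because Myh6 and Myl2 fell along the quartiles, in Actc1+Tnnt2-rich spots from 25380 to 9592 CPM on day 1, from 22487 to 9979 on day 4, from 24868 to 17755 on day 7 and from 23063 to 21436 on day 14. Actc1+Tnnt2 were instead slightly higher in quartile 4, at 14999 against 13054, 12892 against 11756, 14701 against 14043 and 16146 against 15453. Quartiles are relative to their own section. In day order the 4 ranking genes stood in these spots at 13182, 5653, 6862 and 2663 CPM in quartile 4. In quartile 1 they stood at 425, 551, 1334 and 417. Quartile 4 of day 14 thus lay below quartile 3 of day 1, at 5156. The part of this unequal contrast in the quartile ratios below was not tested.

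**Figure D1:**
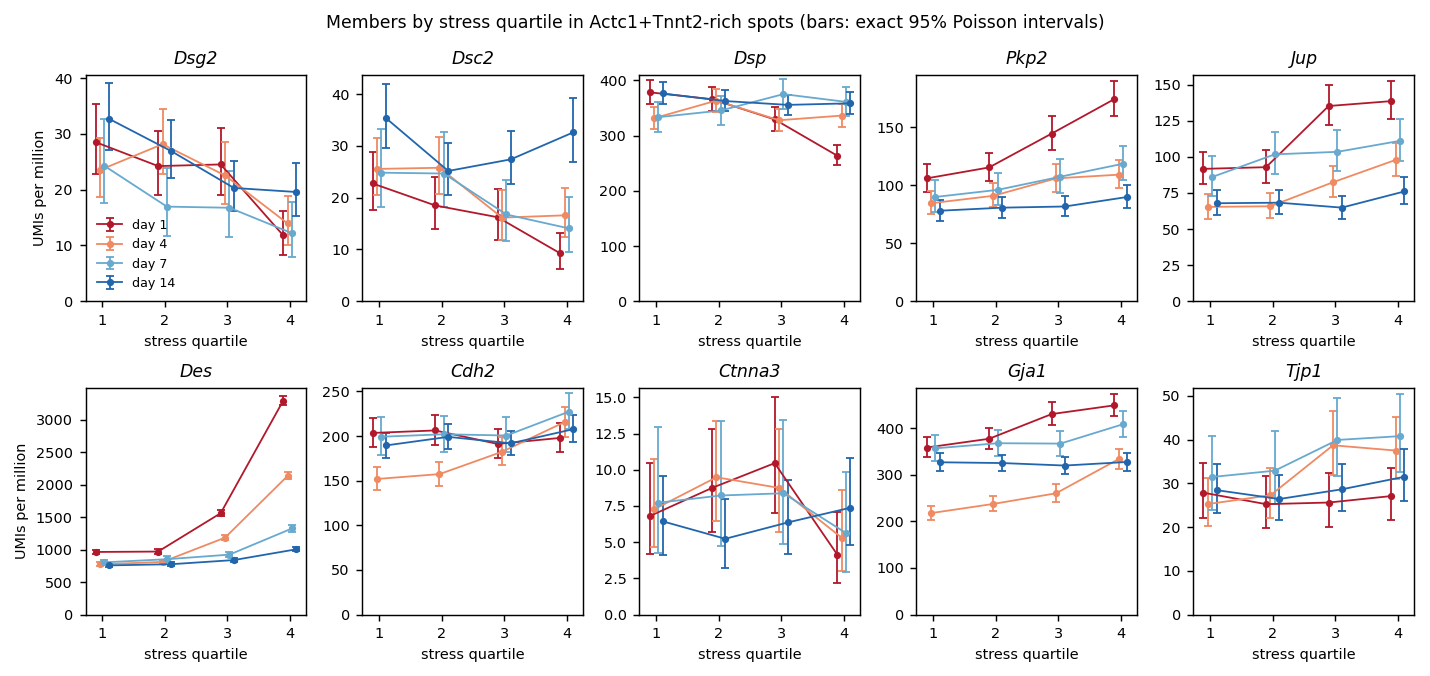
CPM, that is UMIs of a gene scaled to 1000000 UMIs of its spots (y axis, from 0), by stress quartile (x axis) for the 10 members in Actc1+Tnnt2-rich spots, 1 line per section (day 1, 4, 7 or 14), with exact 95% Poisson intervals as bars. Dsg2 ended lower in quartile 4 than in quartile 1 in all 4 sections, Des ended higher in all 4, and Dsp went from 378 to 264 on day 1.

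Over all spots, Des was called higher in quartile 4 than in quartile 1 by edgeR with TMM normalization, and the other 8 members tested were not called. DESeq2 called Pkp2 higher too, and total UMIs as library size added Pkp2 and Jup. Des stood at 965 CPM in quartile 1 and 3295 in quartile 4 on day 1, at 633 and 2059 on day 4, at 699 and 1268 on day 7, and at 712 and 980 on day 14. The ratio of quartile 4 to quartile 1 was 3.41 (exact 95% interval 3.28 to 3.56), 3.25 (3.10 to 3.41), 1.81 (1.70 to 1.94) and 1.38 (1.31 to 1.45), higher in 4 of 4 sections. In edgeR's quasi-likelihood test with the section as a block and Benjamini-Hochberg adjustment over 4763 genes, its log2 fold change was 1.10 (SE 0.20, adjusted p = 0.0208), and 1.01% of genes tested were called higher and 0.294% lower. The call was lost without the section block, with only quartiles 1 and 4 in the fit, with spots in 3 classes, and without the day 4, day 7 or day 14 section, where 0 members were called and 1, 5 and 11 genes in all, against 62 with all 4 sections. Without day 1, 277 genes were called, Des, Pkp2 and Cdh2 among them. In tissue spots, fewer myocytes and less RNA per myocyte cannot be told apart, for this and all results here.

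The other members over all spots split by section. Dsp ran opposite ways, at 377 CPM in quartile 1 and 261 in quartile 4 on day 1, 241 and 331 on day 4, 170 and 376 on day 7, and 353 and 356 on day 14. Its ratio was therefore 0.693 (0.633 to 0.758) on day 1, 1.38 (1.26 to 1.51) on day 4, 2.21 (1.94 to 2.52) on day 7 and 1.01 (0.928 to 1.09) on day 14, and its log2 fold change of 0.10 (SE 0.24, adjusted p = 0.878) did not pass. Gja1 was higher in CPM in quartile 4 in all 4 sections, with ratios of 1.25, 1.79, 2.01 and 1.04. The day 14 interval, 0.956 to 1.14, held 1. Per Actc1+Tnnt2 UMI its ratios were 1.09, 1.22, 0.931 and 0.915. The log2 fold change of Gja1, 0.41 (SE 0.16), did not pass in edgeR (adjusted p = 0.295). Pkp2 (0.66, SE 0.19, adjusted p = 0.131) and Jup (0.45, SE 0.14, adjusted p = 0.152) were higher in 4 of 4 sections and did not pass either. Cdh2, Dsg2, Dsc2 and Tjp1 did not pass, with log2 fold changes of 0.33, −0.68, −0.50 and 0.02.

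Within Actc1+Tnnt2-rich spots, edgeR with TMM called 1 member higher and 3 lower from quartile 1 to quartile 4. Both desmosomal cadherins and Dsp were called lower and Des higher. The linkers Pkp2 and Jup and the connexin Gja1 did not pass the test in either direction. In this comparison 26.7% of genes tested were called higher and 24.8% lower, so that a call by itself is common. The 4 calls among the 9 members tested do not set them apart from other genes, and other scalings, given below, changed some calls.

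Dsg2 stood at 28.5, 24.2, 24.5 and 11.8 CPM in quartiles 1 to 4 on day 1, from 84 UMIs in quartile 1 and 37 in quartile 4. It stood at 23.5, 28.2, 22.5 and 13.9 on day 4, at 24.3, 17.0, 16.8 and 12.2 on day 7 and at 32.7, 26.9, 20.3 and 19.6 on day 14. In every section quartile 4 was the lowest. The ratio was 0.413 (0.273 to 0.615), 0.592 (0.398 to 0.870), 0.502 (0.297 to 0.834) and 0.598 (0.439 to 0.810), each interval lying below 1. The edgeR log2 fold change was −1.25 (SE 0.16, adjusted p = 0.000221).

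Dsc2 stood at 22.8, 18.5, 16.2 and 9.24 CPM in quartiles 1 to 4 on day 1, at 25.6, 25.8, 16.2 and 16.6 on day 4, at 24.8, 24.7, 16.8 and 14.1 on day 7 and at 35.4, 25.2, 27.4 and 32.6 on day 14. It was lower in quartile 4 in 4 of 4 sections, but on day 14 the interval of its ratio, 0.921 (0.711 to 1.19), held 1. On day 1 the ratio was 0.406 (0.253 to 0.637), on day 4 0.649 (0.449 to 0.929) and on day 7 0.566 (0.345 to 0.919). The log2 fold change was −0.94 (SE 0.21, adjusted p = 0.00232 in edgeR), and the call was lost without the section block. Over the 16 section and quartile libraries of all spots, centred within each section, Dsc2 and Dsg2 had a Pearson r of 0.87, the highest that either had with any member. The libraries of a section share its tissue, and no test was made.

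Dsp, which ties both cadherins to desmin filaments, fell beyond counting error on day 1 only. Its levels in quartiles 1 to 4 were 378, 366, 329 and 264 CPM on day 1, 331, 363, 328 and 336 on day 4, 333, 345, 375 and 361 on day 7, and 376, 363, 356 and 358 on day 14. It was higher in quartile 4 in 2 of 4 sections. The day 1 ratio was 0.697 (0.636 to 0.763), while those of days 4, 7 and 14 were 1.01 (0.931 to 1.11), 1.08 (0.972 to 1.21) and 0.953 (0.882 to 1.03). edgeR called Dsp lower with its TMM normalization (log2 fold change −0.45, SE 0.11, adjusted p = 0.00481) but not with total UMIs as library size (−0.11, adjusted p = 0.345).

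The scaling decides part of this comparison. With total UMIs, the median log2 fold change over all genes was 0.38 and 2634 genes were called higher against 557 lower. With TMM the median was 0.03 and 1270 were higher against 1181 lower, so a TMM fold change is read relative to a typical gene. Dsg2 (−0.92), Dsc2 (−0.62) and Des (1.12) were called under both scalings. Gja1 turned from −0.06 (adjusted p = 0.590) with TMM to 0.29 (adjusted p = 0.0188) with total UMIs in edgeR, Pkp2 moved from 0.08 (adjusted p = 0.459) to 0.43 (adjusted p = 0.00138), and Jup from 0.08 (adjusted p = 0.477) to 0.43 (adjusted p = 0.00428). Cdh2 and Tjp1 were not called under either, at −0.15 and −0.08 with TMM and 0.20 and 0.26 with total UMIs.

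Des, the filament protein itself, stood at 964, 970, 1562 and 3297 CPM in quartiles 1 to 4 of Actc1+Tnnt2-rich spots on day 1, at 773, 811, 1185 and 2136 on day 4, at 804, 852, 923 and 1326 on day 7 and at 757, 775, 839 and 1005 on day 14. Quartiles 1 and 2 were close in each section, and quartile 4 was the highest in all 4. In day order the ratio of quartile 4 to quartile 1 was 3.42 (3.28 to 3.57), 2.76 (2.64 to 2.89), 1.65 (1.55 to 1.76) and 1.33 (1.26 to 1.40), and in these 4 mice day and mouse cannot be told apart. The ranking genes themselves also differed in level between the quartiles 4 of these sections, as given above. The log2 fold change was 0.78 (SE 0.17, adjusted p = 0.00218 in edgeR). With only quartiles 1 and 4 in the fit the calls of Des and Dsp were lost and those of Dsg2 and Dsc2 were not.

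Pkp2 and Jup lay higher in quartile 4 in CPM in 4 of 4 sections. Pkp2 stood at 106 in quartile 1 and 174 in quartile 4 on day 1, 84.5 and 109 on day 4, 89.9 and 119 on day 7, and 78.1 and 90.0 on day 14, with ratios of 1.65 (1.43 to 1.90), 1.29 (1.10 to 1.52), 1.32 (1.08 to 1.62) and 1.15 (0.980 to 1.36). Jup stood at 91.7 and 139, 65.3 and 97.9, 86.1 and 111, and 67.9 and 76.1 in the same order, with ratios of 1.51 (1.3 to 1.77), 1.498 (1.26 to 1.79), 1.29 (1.05 to 1.59) and 1.12 (0.940 to 1.34). For both genes the intervals of days 1, 4 and 7 lay above 1 and that of day 14 did not.

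**Figure D2:**
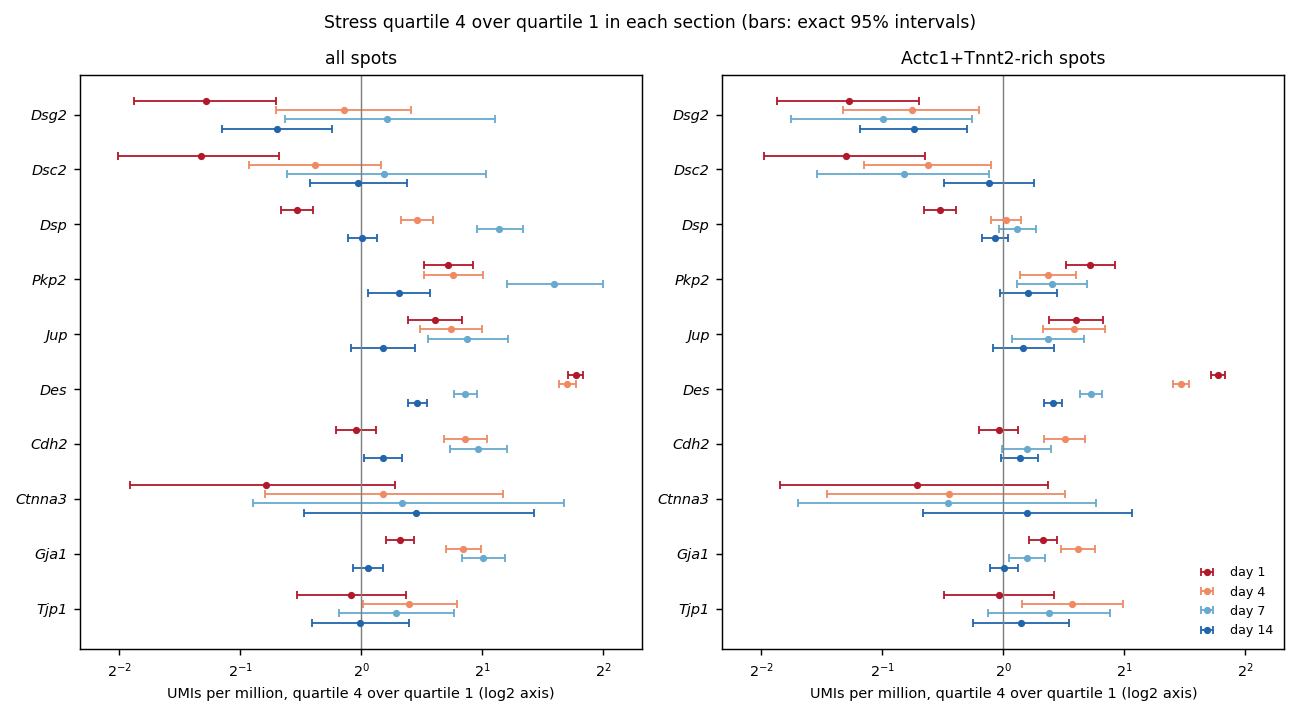
Ratio of CPM in stress quartile 4 to quartile 1 (x axis, log2 scale) for each member (y axis) and section (colour), over all kept spots (left) and over Actc1+Tnnt2-rich spots (right), with exact 95% intervals as bars and a line at 1. On the right, Dsg2 lies at 0.413 to 0.598 and Des at 1.33 to 3.42, while over all spots the 4 sections of Dsp lie on both sides of 1.

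Gja1 stood at 359 CPM in quartile 1 and 449 in quartile 4 on day 1, at 218 and 334 on day 4, at 357 and 409 on day 7, and at 327 and 328 on day 14. The ratio was 1.25 (1.16 to 1.36), 1.53 (1.39 to 1.69), 1.15 (1.03 to 1.27) and 1.00 (0.924 to 1.09), so the transcript of the gap junction channel was not lower in the stress quartile of any section in CPM. Cdh2 differed on day 4, at 152 and 216 with a ratio of 1.42 (1.26 to 1.60), while its intervals of days 1, 7 and 14 held 1. Tjp1 also had its one interval above 1 on day 4, 1.48 (1.11 to 1.99). Ctnna3, too sparse for the 1000-UMI filter, had 12 to 26 UMIs in quartile 1 or 4 of each section, and each of its 4 ratios, from 0.610 to 1.15, had an interval that held 1. In a fit of 11615 genes with at least 100 UMIs, with TMM, it was called lower (log2 fold change −0.75, SE 0.27, adjusted p = 0.0366 in edgeR). Of all genes in that fit, 2039 were called higher and 1881 lower, and Ctnna3 was higher in CPM in quartile 4 of 1 section.

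Set against Dsp UMIs of the same spots, a ratio that needs no library size, the linkers and the connexin stood highest in quartile 4 of day 1. Dsp was itself lower in quartile 4 there, with a CPM ratio to quartile 1 of 0.697, which makes the day 1 rises per Dsp UMI larger than those in CPM. Pkp2 gave 0.280 UMIs per Dsp UMI in quartile 1 and 0.661 in quartile 4 on day 1 (intervals 0.246 to 0.318 and 0.593 to 0.738). The same pair of values was 0.255 and 0.325 on day 4, 0.270 and 0.329 on day 7, and 0.208 and 0.251 on day 14. Jup went from 0.242 to 0.526 on day 1, from 0.197 to 0.291 on day 4, from 0.258 to 0.308 on day 7 and from 0.180 to 0.212 on day 14. Gja1 went from 0.948 to 1.71, from 0.657 to 0.993, from 1.07 to 1.13 and from 0.869 to 0.914. Dsg2 went the other way in each section, from 0.0754 to 0.0447, from 0.0710 to 0.0415, from 0.0728 to 0.0338 and from 0.0870 to 0.0546. Dsc2 went from 0.0601 to 0.0351 on day 1, from 0.0771 to 0.0494 on day 4 and from 0.0745 to 0.0390 on day 7. On day 14 it stood at 0.0942 and 0.0911, with intervals that overlapped. These ratios were added after the levels had been seen and were not tested.

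**Figure D3:**
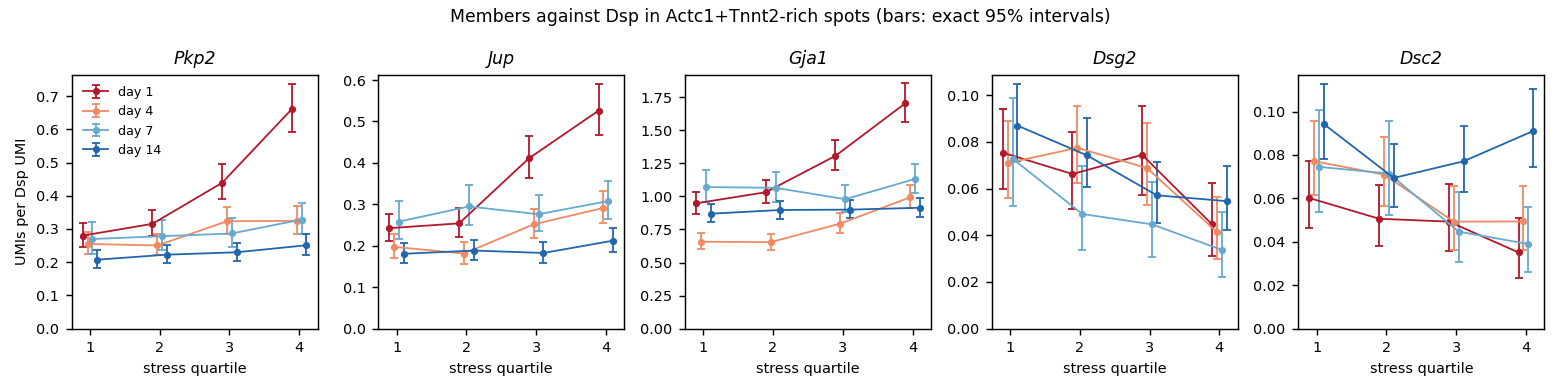
UMIs of Pkp2, Jup, Gja1, Dsg2 and Dsc2 per Dsp UMI (y axis, from 0) by stress quartile (x axis) in Actc1+Tnnt2-rich spots, 1 line per section, with exact 95% intervals as bars. On day 1 Pkp2 rises from 0.280 to 0.661 and Jup from 0.242 to 0.526, while Dsg2 ends lower in quartile 4 in all 4 sections. Dsp itself was lower in quartile 4 of day 1, with a CPM ratio of 0.697.

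Markers of other cell types moved with the quartiles of Actc1+Tnnt2-rich spots. The 5 fibroblast markers summed to 1487 CPM in quartile 4 against 856 in quartile 1 on day 1, 11483 against 1106 on day 4, 8573 against 1400 on day 7 and 1725 against 731 on day 14. The 4 neutrophil markers reached 284 in quartile 4 of day 1, against 17.7 in quartile 1, and were at most 19.0 in the other sections. The 5 macrophage markers ran between 238 and 528 in quartiles 1 and 2 and between 413 and 2091 in quartile 4. The 4 smooth muscle markers summed to 212 CPM in quartile 4 against 65.9 in quartile 1 on day 1, and 496 against 86.0 on day 4. On days 7 and 14 they summed to 267 against 88.3 and 138 against 77.0. Every macrophage, fibroblast and smooth muscle marker was detected in each class. The part of these other cell types in the members' results was not tested. Per Actc1+Tnnt2 UMI, a denominator of sarcomere genes that was itself slightly higher in quartile 4, the Dsg2 ratio lay below 1 in each section. In day order it was 0.360 (0.237 to 0.536), 0.540 (0.363 to 0.794), 0.480 (0.283 to 0.796) and 0.573 (0.420 to 0.775). The log2 fold change of Dsg2 was −1.03 (adjusted p = 0.000587 in edgeR). On that scale Dsc2 (−0.73) stayed called lower, Des (1.00), Pkp2 (0.31) and Jup (0.31) were called higher, and Dsp (−0.22, adjusted p = 0.112 in edgeR) was not called. In this fit 2738 of the 4763 genes tested and 5 of the 9 members tested were called, so that a call by itself is common.

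The cut that defines myocyte-rich spots mattered less. In Myh6+Myl2-rich spots, 21.5% of genes were called higher and 20.5% lower from quartile 1 to 4, and the members called were the same 4 as in Actc1+Tnnt2-rich spots. Their log2 fold changes were −0.93 for Dsg2 (adjusted p = 4.45e-05 in edgeR), −0.73 for Dsc2, −0.30 for Dsp and 0.45 for Des. With TMM these 4 were also called in Actc1+Tnnt2-rich spots when any 1 section was left out, where Dsg2 ran from −1.40 to −1.13 and Dsp from −0.54 to −0.33. For Dsp this does not show a fall in each section. Without day 1 it was called at −0.33, relative to a typical gene. Its CPM ratios in the sections of days 4, 7 and 14 were 1.01, 1.08 and 0.953, with intervals that held 1. Leaving out day 4 lowered the number of genes called from 2451 to 1463.

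Per Myh6+Myl2 UMI, over all spots, no member was called among 4763 genes, of which 0.063% were higher and 0.021% lower. Unadjusted, 6 of the 9 members tested and 428 of all 4763 genes had p under 0.05 in edgeR. DESeq2 called Des, Gja1, Pkp2 and Cdh2 higher, among 95 genes higher and 6 lower. On this scale the median over all genes was a log2 fold change of 0.43, and 0.02 without the day 1 section. Des (1.64), Pkp2 (1.24), Jup (0.98), Gja1 (0.95), Cdh2 (0.87), Dsp (0.64) and Tjp1 (0.50) lay above 0.43, and Dsg2 (−0.12) and Dsc2 (−0.02) below it. On day 1 Dsg2 gave a ratio of 1.09 (0.719 to 1.62) and Dsc2 one of 1.05 (0.658 to 1.65), so the cadherins did not differ from the myosins beyond counting error there. Dsp (1.83), Gja1 (3.30), Pkp2 (4.35) and Des (9.03) stood above 1 on this scale on day 1. Within Actc1+Tnnt2-rich spots this scale turned Dsp to a called rise of 0.70 and Dsc2 to 0.09, uncalled, with Dsg2 at −0.16. In that fit 4301 of the 4763 genes tested were called, and the median log2 fold change over the 9 members tested was 1.07, above the value of Dsp. Because Myh6+Myl2 fell from quartile 1 to 4 in these spots, values on this scale lie higher than in CPM.

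A second comparison asked which members depend on myocyte-rich tissue. Spots poor in Myh6+Myl2 numbered 463, 522, 538 and 270 on days 1, 4, 7 and 14. The split did not separate myocytes from scar on day 1, where the poor spots held Actc1+Tnnt2 at 13480 CPM against 13750 in the rich spots and the 4 ranking genes at 12351 against 2966. On days 4, 7 and 14 Actc1+Tnnt2 were at 7132, 4150 and 3078 in the poor spots and between 12740 and 15940 in the rich. The day 7 poor spots also held skeletal muscle markers (10 genes) at 16706 CPM, against at most 84.0 in the poor spots of the other sections, from 118 spots with at least 10 such UMIs, and skeletal muscle also expresses desmin. Smooth muscle markers (4 genes) were higher in poor than in rich spots, at 239 against 104 CPM on day 1 and 1247 against 147 on day 4. On days 7 and 14 they stood at 602 against 148 and 711 against 96.0. The part of either muscle in the Des values was not tested.

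Of the 9 members tested, 6 were called lower in Myh6+Myl2-poor spots and 0 higher, against 26.5% lower and 29.1% higher among all genes tested. They were Dsc2 (log2 fold change −2.11, SE 0.22, adjusted p = 0.00362 in edgeR), Dsg2 (−2.01, SE 0.27), Dsp (−1.76, SE 0.40), Pkp2 (−1.31, SE 0.45), Gja1 (−1.20, SE 0.33) and Cdh2 (−1.15, SE 0.32). Pkp2, at an adjusted p of 0.0478 in edgeR, lost its call without the section block, at a hemoglobin limit of 0.5%, without skeletal muscle spots, and without day 4, day 7 or day 14. Jup (−0.66, SE 0.33, adjusted p = 0.135), Des (−0.19, SE 0.55) and Tjp1 (−0.13, SE 0.13) did not pass in edgeR. In the fit of genes with at least 100 UMIs, Ctnna3 was called lower at −1.76 (SE 0.35), where 2662 of 11615 genes were called higher and 2366 lower. With total UMIs as library size, where the median over all genes was 0.56 rather than 0.08 and 2399 genes were higher against 738 lower, only Dsp, Dsg2 and Dsc2 were called, and Des and Tjp1 turned to 0.29 and 0.35, uncalled. Without day 4, Dsp, Dsg2 and Dsc2 were called and 1205 genes in all, and without day 7 only Dsg2 and Dsc2 and 1637 genes, against 1385 higher and 1261 lower with all sections.

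Des showed the difference between sections most plainly. In Myh6+Myl2-poor against rich spots it stood at 3405 against 1239 CPM on day 1, at 1789 against 916 on day 4, at 968 against 947 on day 7 and at 312 against 839 on day 14. The ratio was 2.75 (2.67 to 2.83), 1.95 (1.89 to 2.02), 1.02 (0.970 to 1.08) and 0.372 (0.308 to 0.446). Pkp2 was also higher in poor spots on day 1, at 164 against 126, and lower on days 4, 7 and 14, at 65.6 against 95.5, 36.6 against 103 and 15.7 against 82.5. Dsp was lower in the poor spots of each section, at 254 against 353, 210 against 344, 115 against 360 and 65.6 against 363.

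Splitting on Actc1+Tnnt2 instead left 56, 273, 434 and 259 poor spots, and 8 of the 9 members tested were called lower, against 28.8% of all genes lower and 26.9% higher. Pkp2 (−3.08, SE 0.31), Dsg2 (−3.34, SE 0.39), Dsc2 (−3.16, SE 0.31), Dsp (−2.70, SE 0.29), Gja1 (−2.11, SE 0.26), Cdh2 (−1.97, SE 0.24), Des (−1.43, SE 0.44) and Jup (−1.22, SE 0.31) had adjusted p between 0.00229 and 0.0308 in edgeR, and Tjp1 (−0.47, adjusted p = 0.0556) did not pass. In CPM on days 4, 7 and 14, the level of Gja1 in poor spots was 0.422 (0.360 to 0.493), 0.246 (0.204 to 0.294) and 0.297 (0.207 to 0.414) times that in rich spots, and the level of Dsp 0.217, 0.195 and 0.182 times. Tjp1, which epithelial and endothelial cells also express, stood at 35.5, 39.3 and 35.8 in the poor spots against 31.8, 36.5 and 28.7 in the rich. Dsg2 and Ctnna3 gave 0 UMIs in the 56 poor spots of day 1, which allows up to 23.9 CPM, a limit above the level of Dsg2 in the rich spots of that section (22.1). Adipocyte markers (5 genes) were at 5656 CPM in those 56 spots against 28.8 in the rich ones, and at most 842 in the poor spots of the other days. Their part in the day 1 values was not tested.

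**Figure D4:**
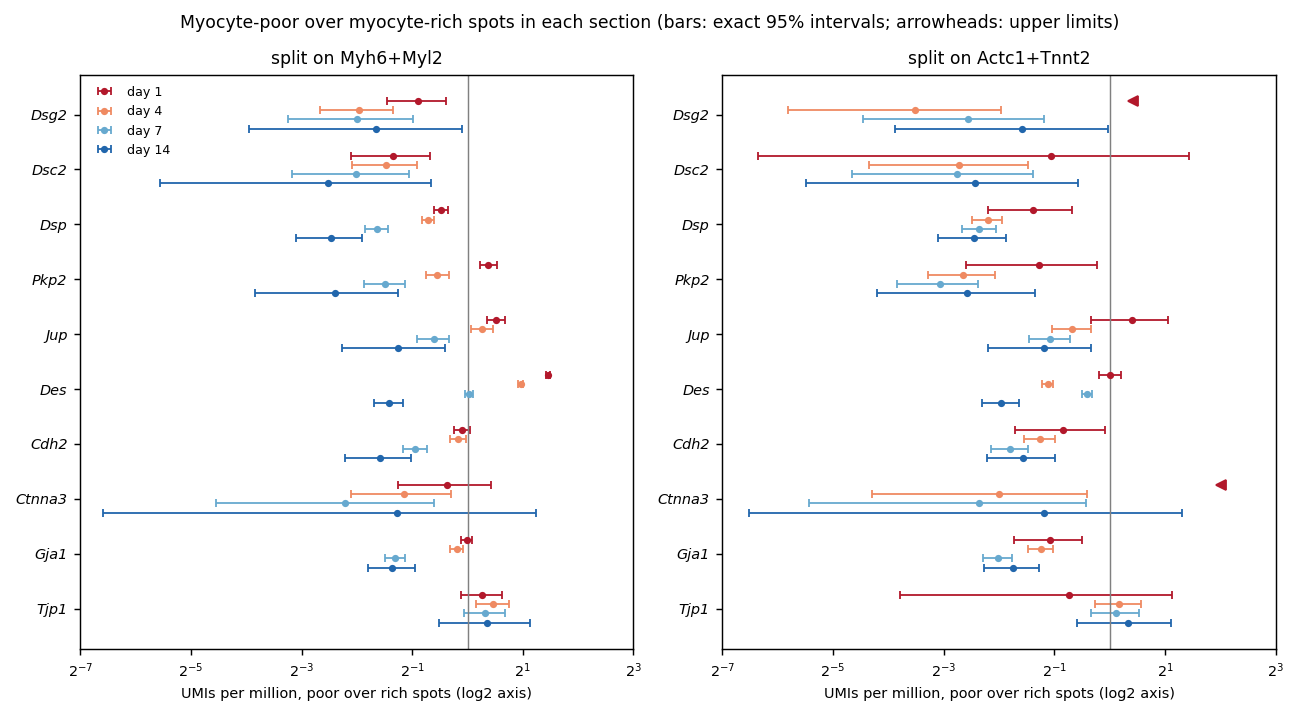
Ratio of CPM in myocyte-poor to myocyte-rich spots (x axis, log2 scale) for each member and section, split on Myh6+Myl2 (left) or on Actc1+Tnnt2 (right), with exact 95% intervals as bars, arrowheads at the upper limit where the poor spots had 0 UMIs, and a line at 1. Split on Myh6+Myl2, Des runs from 2.75 on day 1 to 0.372 on day 14. Split on Actc1+Tnnt2, Dsp lies between 0.182 and 0.383 in all 4 sections.

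Of 29 other junction and disc genes, 21 passed the filter of 1000 UMIs, none of them a connexin or pannexin. From quartile 1 to 4 over all spots 4 of the 21 rose and 0 fell, against 1.01% of all genes tested called higher and 0.294% lower. The limits given for Des hold here too. Without the day 4, day 7 or day 14 section only 1, 5 and 11 genes in all were called, and without the section block 2. The rises included Xirp1 (log2 fold change 1.23, SE 0.26, adjusted p = 0.0398 in edgeR), Sorbs2 (1.17, SE 0.19) and Nrap (1.03, SE 0.17). Xirp1 and Nrap encode actin-binding proteins of the disc and Sorbs2 an adaptor. In Actc1+Tnnt2-rich spots 8 rose and 7 fell, with a median log2 fold change of 0.09 over the 21 and 0.03 over all genes, of which 26.7% were called higher and 24.8% lower. With total UMIs as library size the counts were 11 and 4, against 2634 higher and 557 lower among all 4763 genes tested. The largest rises with 1 direction in all 4 sections were Tln1 (0.88, SE 0.17), Xirp1 (0.77, SE 0.27), Sorbs2 (0.67, SE 0.10) and Ilk (0.56, SE 0.13), of which talin 1 and integrin-linked kinase act at integrin contacts in many cell types. The largest falls were Fgf13 (−1.09, SE 0.20), a fibroblast growth factor homologous factor, Myzap (−0.84, SE 0.17), a desmoplakin-binding protein of the disc, Tmem65 (−0.81, SE 0.16), a disc membrane protein, and Ank2 (−0.72, SE 0.18), an ankyrin.

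In Myh6+Myl2-poor spots 3 of the 21 rose and 7 fell, against 29.1% of all genes higher and 26.5% lower. Tln1 (1.08, SE 0.16), Ctnnd1 (0.91, SE 0.17), which encodes p120-catenin, and Ilk (0.85, SE 0.17) were the rises, and Myzap (−2.35, SE 0.33), Fgf13 (−2.35, SE 0.31), Lmo7 (−1.77, SE 0.36) and Ank2 (−1.44, SE 0.14) the largest falls. Per Myh6+Myl2 UMI none of the 21 and 4 of all 4763 genes tested were called in edgeR. Unadjusted, 5 of the 21 and 428 of all genes had p under 0.05 in edgeR. DESeq2 called 4 of the 21 and 101 of all genes. Among the 5 genes whose levels were most like those of Gja1 over the 16 section and quartile libraries were Popdc2 (Pearson r 0.99), Camta1 (0.96), Pkp2 (0.94) and Lbh (0.94), from values centred in each section and given with no test. The libraries of a section share its tissue and depth.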

How the data were processed

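The 4 Visium libraries (1 per section) were processed by the authors with Space Ranger 1.3.0 against mm10, and the deposited values are raw UMI counts per gene and spot. Spots in which hemoglobin genes (8 symbols) made up over 1% of the UMIs were left out and tests took genes that reached 1000 UMIs in what remained, both after the study's methods (the hemoglobin genes were chosen here, and spots near the tissue edge were not removed). Space Ranger's barcodes are fixed positions of the slide, so 1332 of the 3178 barcodes occur in all 4 sections. UMIs were summed per section and spot class, since spots are not replicates. edgeR 4.0.16 (R 4.3.3) was fitted with quasi-likelihood tests, TMM normalization and the section as a block, with all 4 quartiles in the fit, over 4763 genes after the 4 ranking genes, Myh6 and Myl2 were left out, and calls use a Benjamini-Hochberg adjusted p under 0.05. The p-values rest on 4 mice of different days. In the quartile fits the spread was estimated over 16 libraries, with several from each section, and so is not a spread between mice alone. For the fit per myosin UMI the library size was the Myh6+Myl2 sum. Intervals of levels are exact Poisson, those of ratios exact conditional, at 95%, and cover counting error only. DESeq2 1.42.0 and the other alternatives are described in the closing section. The edgeR tests of quartiles over all spots, of quartiles in Actc1+Tnnt2-rich spots and of poor against rich spots were tested on simulated data. The fit per myosin UMI and the alternatives were not. The simulated libraries were independent and had no section effect, so they do not show how calls behave among libraries that share a section. Named from the wider list were up to 4 largest rises and 4 largest falls per comparison with 1 direction in all sections. Members, lists and comparisons were chosen with earlier results of these data known, and the Actc1+Tnnt2 cut, the ratios to Dsp and the lone mention of any other gene were added after values had been seen. One gene of the wider list is counted but its values are not reported here.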

Additional observations from a re-analysis of the deposited data

Results flagged for a closer look

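Some ratios of members ran opposite ways in different sections, each beyond its counting interval. With 1 mouse per day the difference between sections was not tested. Over all spots, the ratio of Dsp CPM between stress quartiles 4 and 1 was 0.693 on day 1, against 1.38 on day 4 and 2.21 on day 7. A like turn was seen between spot classes. In Myh6+Myl2-poor over rich spots, the CPM ratio of Pkp2 was 1.301 on day 1 and 0.686, 0.355 and 0.191 on days 4, 7 and 14. The ratio of Jup was 1.43 on day 1 and 1.20 on day 4, and 0.654 on day 7 and 0.417 on day 14. That of Des was 2.75 on day 1, 1.95 on day 4 and 0.372 on day 14. Of the spots in quartile 1, 2.33% on day 1, 41.0% on day 4 and 66.9% on day 7 were poor in Actc1+Tnnt2, and the part of that in these ratios was not tested.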

How the results depend on the processing

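Precision is limited by 4 sections and by low counts of Dsg2, Dsc2, Tjp1 and Ctnna3. Spot classes were paired by section in each main fit, through the section block. The cause of the shifts below was not tested. For quartile 4 against 1 over all spots (62 genes, 1 member called), the genes and members called were 142 and 2 with DESeq2, 104 and 3 with total UMIs, 2 and 0 without the section block, 2000 and 4 in Myh6+Myl2-rich spots, 2 and 0 with spots in 3 classes and 1 and 0 with only quartiles 1 and 4, and 96 genes were called from 100 UMIs. Leaving out 1 section gave 1 to 277 genes and 0 to 3 members. Per myosin UMI (4 genes, 0 members), they were 101 and 4 with DESeq2, 4038 and 7 in Myh6+Myl2-rich spots and 760 and 2 per Actc1+Tnnt2 UMI. Genes called were 8 from 100 UMIs, 0 without the block, 24 without skeletal muscle spots, 9 ranked without Nppb, 2 in 3 classes, 8 with only quartiles 1 and 4, 2 per Myh6 UMI and 0 to 22 with 1 section left out. For poor against rich spots, 3 members were called with total UMIs, 5028 genes from 100 UMIs, and 1205 to 2706 genes and 2 to 7 members with 1 section left out. Within Actc1+Tnnt2-rich spots, genes called were 3920 from 100 UMIs, 1612 without the block (3 members, without Dsc2), 1361 with only quartiles 1 and 4 (2 members, Dsg2 and Dsc2), 4301 per myosin UMI (7 members) and 1463 to 2451 with 1 section left out.

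Directions turned for single genes, as log2 fold changes. Over all spots, Dsp turned to −0.30, Cdh2 to −0.10 and Tjp1 to −0.057 in Myh6+Myl2-rich spots, and Tjp1 to −0.00492 at a 0.5% hemoglobin limit. With 1 section left out, Dsp ran from −0.20 to 0.44 and Tjp1 from −0.063 to 0.16. Per myosin UMI, Dsc2 turned to 0.12 without the hemoglobin filter, 0.013 at the 0.5% limit, 0.014 with spots of at least 1000 UMIs, 0.000437 without skeletal muscle spots, 0.017 in 3 classes and 0.096 per Myh6 UMI, and Dsp to −0.23, Cdh2 to −0.019 and Tjp1 to −0.36 per Actc1+Tnnt2 UMI. With 1 section left out, Dsc2 ran from −0.13 to 0.11 and Dsg2 from −0.35 to 0.091. For poor against rich spots, Des turned to 0.29 and Tjp1 to 0.35 with total UMIs, and Des to 0.27 without the block, with −0.72 to 0.40 as its range with 1 section left out. Within Actc1+Tnnt2-rich spots, Gja1, Cdh2 and Tjp1 turned to 0.29, 0.20 and 0.26 with total UMIs and to 0.17, 0.086 and 0.15 per Actc1+Tnnt2 UMI, and Gja1 to 0.058 in Myh6+Myl2-rich spots. Pkp2 and Jup turned to −0.028 from 100 UMIs, and with 1 section left out Pkp2 ran from −0.028 to 0.15 and Tjp1 from −0.13 to 0.0099. Per myosin UMI, Gja1 turned to 1.12, Dsp to 0.70, Cdh2 to 1.02, Dsc2 to 0.095, Tjp1 to 1.07, Fgf13 to 0.0071, Myzap to 0.27, Tmem65 to 0.32 and Ank2 to 0.40.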
